A study of Capra hircus with 2 samples.

Results

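The DLK1-DIO3 region holds one of the largest groups of imprinted miRNA genes in mammals, and its miRNAs were followed here in sorted goat testicular cells. Members were chosen by name: a list of 58 miRNA names of the region was matched to the names in the deposited tables, with no minimum of reads. The list was made with earlier results of these data known. Of the 58 names, 48 were found, as 89 mature arms (the 5p or 3p side of a hairpin) among 1808 named arms in all. The CD49f-positive library listed 85 of them and the CD49f-negative library 81. The 10 names not found were miR-154, miR-323, miR-323b, miR-337, miR-409a, miR-411, miR-544a, miR-654, miR-668 and miR-889. For 5 of these the tables used a neighbouring form of the name that was itself a member: miR-154a and miR-154b, miR-323a, miR-409, miR-411a and miR-544.

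The miRNAs of the region lie between DLK1, which encodes a Notch-like membrane protein, and DIO3, which encodes an enzyme that inactivates thyroid hormone. They are made from long non-coding transcripts of the maternal chromosome. A control region is methylated on the paternal chromosome, and that mark is laid down in the male germ line. Some members, among them miR-127 and miR-136, lie antisense to RTL1, a gene active on the paternal chromosome, and in mouse can cut its transcript.

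Cells came from 3 testes of 3 Saanen dairy goats aged 5 months. They were released with enzymes, plated overnight to let Sertoli and myoid cells attach, and the floating cells were sorted on magnetic beads by CD49f, the integrin alpha 6 chain carried by spermatogonia and by other cells that touch a basement membrane. Small RNA was sequenced from the CD49f-positive and the CD49f-negative cells, 1 library per group in the files used here. The series text speaks of triplicates, and whether the goats were pooled is not given. With 1 library per group no difference below has a replicate check, no test was made, and each 95% interval covers counting error only, since reads copied by PCR without molecular tags are not independent molecules.

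The positive library held 8196507 named miRNA reads and the negative library 3064462, a ratio of 2.67. Levels below are RPM, the reads of a name scaled to a fixed total of named reads, or shares of named reads, and 3 reads were worth 0.366 and 0.979 RPM. Markers of other testicular cells differed between the libraries. The 5 miRNAs of meiotic and post-meiotic germ cells (the miR-34b/c and miR-449 families) took 22530.45 RPM in the positive and 113729.26 in the negative library. The Sertoli marker miR-202 was at 319.8 and 823, the smooth muscle and myoid list of 5 at 225622.45 and 189588.25, the fibroblast list of 3 at 4889.85 and 5598.7, and the endothelial miR-126 at 14348.55 and 7551.41. The 4 white blood cell markers summed to 196.9 and 248.2, the 5 epithelial ones to 31.6 and 93.33, and the 4 red blood cell names to 2962.66 and 3715.99. Of the red blood cell names, miR-451a was at 0, while the other 3, miR-451 among them, had reads. The part of these cells in the cluster's values was not tested, and fewer cells of a type cannot be told apart from less RNA per cell.

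The sequences below are those the tables list for the 14 arms with at least 100 reads over both libraries. They are shown because they hold 87.68% of the cluster's reads in the positive and 82.89% in the negative library. Capitals mark bases 2 to 8, which in a mature arm are the seed that pairs with target transcripts. The sequences under miR-495-5p and miR-329b-5p are not the annotated 5p arms, as described below, so their capitals do not mark the seeds of those arms.
miR-127-3p: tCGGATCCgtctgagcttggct
miR-136-3p: aTCATCGTctcaaatgagtct
miR-379-5p: tGGTAGACtatggaacgtagg
miR-411a-5p: aTAGTAGAccgtatagcgtac
miR-380-3p: tATGTAATgtggtccacgtct
miR-323a-3p: cACATTACacggtcgacctct
miR-329b-5p: cACCCATGgtacctgaaga
miR-494-3p: tGAAACATacacgggaaacctct
miR-495-5p: tGACCGCTggtacctgaaaa
miR-3958-3p: aGATATTGcacggttgatctct
miR-3959-5p: gGTTGATCagagaacatacatt
miR-382-3p: aATCATTCacggacaacactt
miR-409-5p: aGGTTACCcgagcaactttgcat
miR-409-3p: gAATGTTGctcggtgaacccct

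The 14 seeds were all different, so no pair of these arms shares a seed. Each listed sequence had 0 mismatches to the genome, and 12 of the 14 were identical between the libraries. The other 2, miR-127-3p and miR-409-3p, began alike and differed in length at the 3′ end: 22 bases in the positive and 20 in the negative library for miR-127-3p, and 22 and 21 for miR-409-3p. Over all 82 arms listed at a hairpin of the locus, 74 different seeds occurred. Shared seeds joined 14 arms in 6 sets, among them miR-376a-3p, miR-376b-3p and miR-376d-3p with TCATAGA, and miR-154a-3p, miR-487a-3p and miR-539-3p with ATCATAC. The first base was A in 43 of the 82 listed sequences, T in 25, G in 10 and C in 4. Some arms were listed with 1 and the same sequence, so their reads were split between names. Those with at least 20 reads were miR-379-3p with miR-411a-3p, and miR-329a-3p with miR-329b-3p. In each of these pairs the sequence had 0 mismatches to the second hairpin and 1 to the first. With fewer reads, miR-376b-5p shared its sequence with miR-376c-5p in both libraries, and miR-376a-3p with miR-376b-3p in the positive library.

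All 46 hairpins of the cluster with coordinates lay on chromosome 21 on the + strand, from miR-493 at chr21:62675855-62675969 to miR-656 at chr21:62868415-62868493, a span of 192639 bases. The goat genome build of these coordinates is not given in the sources used here. Of the 46, 42 have an entry in the RefSeq goat gene table (assembly ARS1.2), where they stand in the same order, all between DLK1 and DIO3. miR-433, miR-127, miR-432 and miR-136 lie inside RTL1 there. The hairpins formed 2 groups. The first held 7, from miR-493 to miR-370 over 43.04 kb, and the second held 39, from miR-379 to miR-656 over 42.31 kb, with 107.3 kb between them. The median gap between neighbours was 0.79 kb, and 25 of 45 gaps were under 1 kb. Nearly all member reads came from this locus, 99.58% in the positive and 99.28% in the negative library. miR-431 and miR-329 were listed only at entries away from it. Each library had reads on 45 of the 46 hairpins.

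The cluster as a whole was a small part of the miRNA pool in both sorted populations, and a smaller part in the positive library. It took 5738 reads in the positive library, 0.07001% of named reads (95% Clopper-Pearson interval 0.06821 to 0.07184), and 2911 in the negative, 0.09499% (0.09157 to 0.09851). The positive share was 1.36-fold lower, a log2 ratio of -0.44 (exact conditional interval -0.50 to -0.38). This direction rests on scaling by total reads, since factors computed over all 1808 names turned it to 0.38 (TMM) and 0.39 (median of ratios). Against total reads, the scalings shifted every ratio by up to 0.83 on the log2 scale. The same factors computed over the 298 names with at least 100 reads gave -0.10 and -0.01. Values below are therefore read beside the median of all 298 such names, which was -0.43 when scaled by total reads.

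Beside that median the cluster was not set apart as a block. Its 14 arms with at least 100 reads had a median log2 ratio of -0.53, which is 0.10 under the median of all 298 names. A scaling shifts both medians alike and cannot change that gap. Among known placed hairpins the medians were -0.54 for members and -0.30 for all names, and with reads that had no mismatch -0.33 and -0.32. All 14 log2 ratios were below 0 when scaled by total reads, as were 74.83% of the 298. Only 3 remained below 0 under TMM or median of ratios over all names, 10 under TMM over the 298 names and 8 under median of ratios over them. The median of all 298 names moved with these scalings, to 0.39, 0.41, -0.09 and 0.0044 in that order. These counts of signs therefore follow the scaling and are not a result about the members. An arm was called lower when its share was at least 2-fold lower in the positive library, with an interval that left out equality. That held for 3 of the 14 arms, against a background of 24.8% of the 298 names, and none was called higher, against 2.01%. The share of members called, 21.4%, was thus near the background. Under TMM and under median of ratios over all names, no arm was called lower, beside 5.03% of names with each, and none higher, beside 16.4% and 17.1%. With TMM and median of ratios over the 298 names the same 3 arms were called lower, beside 16.4% and 13.4% of names, and without the 10 most abundant names they were again, beside 19.1%. When all 37 arms with at least 20 reads were counted, 11 were called lower, beside 29.5% of the 485 such names. With no minimum it was 15 of 89, beside 10.8%, and with a 1.5-fold rule 5 of 14, beside 42.6%. With 5 reads added it was 3, beside 25.2%, and among known placed hairpins 3, beside 22.4%.

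The first group, which holds the RTL1-antisense members, was nearly level by total reads as a sum, which rests mostly on miR-127 and miR-136. miR-127-3p, the most abundant member, had 1513 reads in the positive and 592 in the negative library, or 184.6 and 193.2 RPM. It ranked 102 and 115 among all names. Its log2 ratio was -0.07 (-0.20 to 0.07) by total reads, an interval that holds 0 and lies above the median of all names, -0.43. Under the other scalings it ranged from 0.22, without the 10 most abundant names, to 0.77 with median of ratios over all names. miR-136-3p had 400 and 171 reads, or 48.8 and 55.8 RPM, with a log2 ratio of -0.20 (-0.46 to 0.07), again an interval that holds 0. The passenger arms miR-127-5p and miR-136-5p had 21 and 5, and 30 and 7 reads. miR-432-5p had 16 and 6 reads. The 7 placed hairpins of the first group took 2048 and 825 reads, at -0.11 in log2 ratio (-0.22 to 0.01), and the 39 of the second group 3666 and 2065, at -0.59 (-0.67 to -0.51). With TMM over all names these ratios were 0.71 and 0.23. Of the first group's reads, the miR-127 hairpin gave 1534 and 597 and the miR-136 hairpin 430 and 178. The group ratio therefore says little about its other hairpins. miR-493, which comes before the hairpins inside RTL1 on the + strand, gave 56 and 34 reads from its hairpin, a log2 ratio of -0.71 (-1.34 to -0.04).

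**Figure D1:**
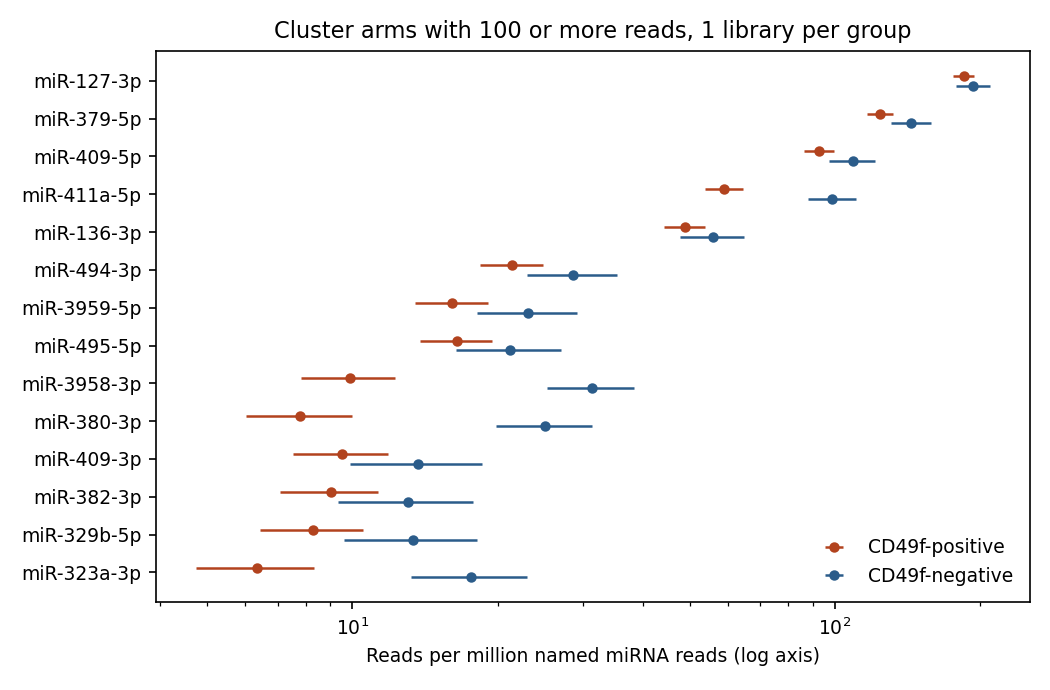
Level of the 14 arms with at least 100 reads in the CD49f-positive (red) and CD49f-negative (blue) library, in RPM on a log axis, 1 library per group. Points are levels and bars exact 95% intervals for counting error. miR-127-3p overlaps between the libraries, while miR-411a-5p, miR-3958-3p, miR-380-3p and miR-323a-3p lie apart.

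The second group begins with miR-379, the first hairpin of the large cluster that neuronal activity switches on in rodent neurons. miR-379-5p had 1016 and 441 reads, 124.0 and 143.9 RPM, and a log2 ratio of -0.22 (-0.38 to -0.05). The neighbouring miR-411a-5p had 483 and 302 reads, 58.93 and 98.55 RPM, and a ratio of -0.74 (-0.95 to -0.53). Both were lower in the positive library by total reads, and miR-411a-5p was lower by more: per read of miR-379-5p it had 0.475 reads in the positive and 0.685 in the negative library. That is a log2 odds ratio of -0.53 (-0.80 to -0.26), which needs no scaling between libraries.

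Further downstream came the 3 arms that were called. miR-380-3p had 64 reads in the positive and 77 in the negative library although the negative one was sequenced less deeply, 7.808 and 25.13 RPM. Its log2 ratio was -1.68 (-2.19 to -1.19), or 3.21-fold lower. miR-323a-3p had 52 and 54 reads, 6.344 and 17.62 RPM, and a ratio of -1.47 (-2.05 to -0.90), or 2.78-fold lower. miR-3958-3p, a name known from sheep, had 81 and 96 reads, 9.882 and 31.33 RPM, and a ratio of -1.66 (-2.11 to -1.22), or 3.17-fold lower. The ratios of these 3 stayed below 0 under every scaling tried. With reads that had no mismatch, miR-3958-3p was at 60 and 75 reads and miR-380-3p at 58 and 68. miR-323a-3p was then at 44 and 41, under the minimum of 100, which ended its call and left 2 arms called lower, beside 21.5% of 242 names.

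The other abundant arms of the second group were less far apart. miR-409-5p had 759 and 333 reads, 92.6 and 108.7 RPM, with a log2 ratio of -0.23 (-0.42 to -0.04). miR-409-3p from the other side of that hairpin had 78 and 42 reads and a ratio of -0.53 (-1.09 to 0.05). miR-494-3p had 176 and 88 reads and a ratio of -0.42 (-0.80 to -0.03). miR-3959-5p, another name known from sheep, had 132 and 71 reads and a ratio of -0.53 (-0.95 to -0.09). miR-495-5p had 135 and 65 reads and a ratio of -0.37 (-0.80 to 0.08). miR-382-3p had 74 and 40 reads and a ratio of -0.54 (-1.11 to 0.06). miR-329b-5p had 68 and 41 reads and a ratio of -0.70 (-1.27 to -0.09). In 3 of these 7 the interval held 0.

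In reads, the order of the leading arms was miR-127-3p, miR-379-5p, miR-409-5p, miR-411a-5p and miR-136-3p in both libraries. Neighbours in this order stood clear of each other beyond counting error, except miR-411a-5p and miR-136-3p in the positive library (53.79 to 64.42 and 44.14 to 53.83 RPM) and miR-409-5p and miR-411a-5p in the negative (97.31 to 121 and 87.75 to 110.3 RPM). These 5 arms held 72.69% of the cluster's reads in the positive and 63.17% in the negative library.

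**Figure D2:**
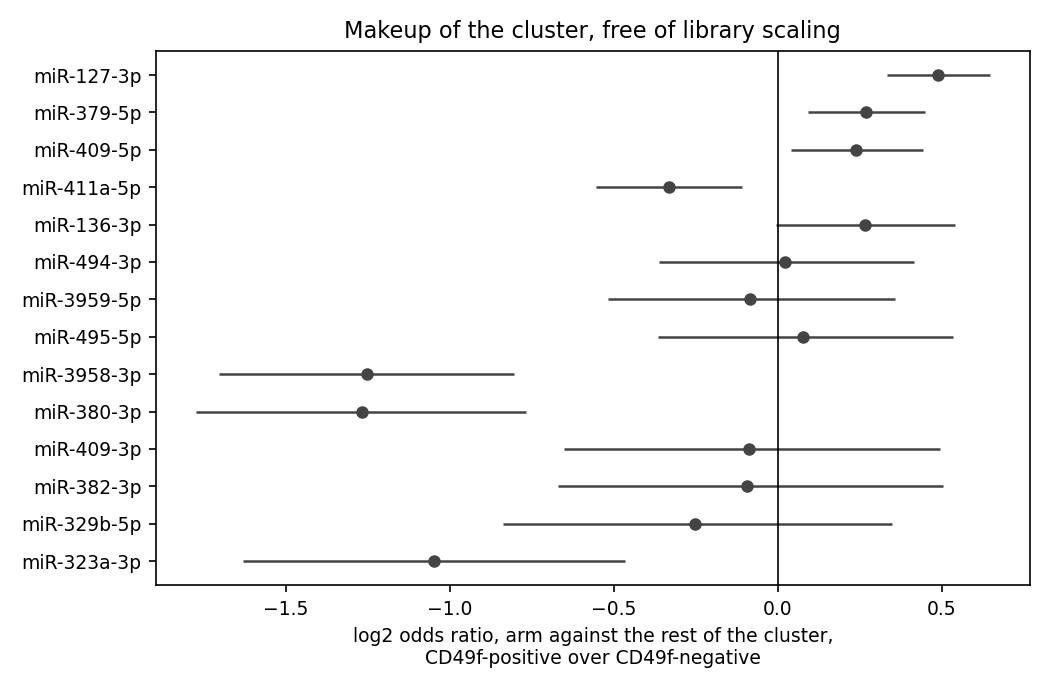
Log2 odds ratio of each arm against all other reads of the cluster, CD49f-positive over CD49f-negative, with exact 95% intervals for counting error. This measure does not depend on scaling between the libraries: miR-127-3p, miR-379-5p and miR-409-5p lie right of 0, and miR-411a-5p, miR-3958-3p, miR-380-3p and miR-323a-3p left of it.

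The makeup of the cluster differed between the libraries, and this comparison is free of scaling because it sets reads of 1 library against each other. miR-127-3p made up 26.37% of cluster reads in the positive and 20.34% in the negative library, a log2 odds ratio of 0.49 (0.33 to 0.65). miR-379-5p followed with 0.27 (0.09 to 0.45) and miR-409-5p with 0.24 (0.04 to 0.44). miR-411a-5p took a smaller part of the positive cluster, with -0.33 (-0.55 to -0.11). miR-380-3p was at -1.27 (-1.77 to -0.77), miR-3958-3p at -1.25 (-1.70 to -0.80) and miR-323a-3p at -1.05 (-1.63 to -0.47). The other 7 of the 14 arms had intervals that held 0. Shares of a whole are tied to each other, so a larger part for some arms implies a smaller part for others. Set against the single arm miR-494-3p, which kept its part of the cluster (3.067% and 3.023%), miR-380-3p was at -1.26 (-1.90 to -0.63), miR-3958-3p at -1.24 (-1.84 to -0.65) and miR-323a-3p at -1.05 (-1.75 to -0.35). miR-411a-5p was at -0.32 (-0.76 to 0.11) against it, an interval that holds 0. Because the part of miR-494-3p was level in these same data, odds against it must lie near those against the rest of the cluster. They add no separate support.

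Among the 23 arms with 20 to 99 reads, the median log2 ratio was -0.87, beside -0.81 for all 187 names of that depth. In this range 18 arms (78.26%) were below 0 by total reads, beside 84.49% of the 187 names. miR-543-3p had 8 and 22 reads and a ratio of -2.82 (-4.26 to -1.66). miR-1197-3p had 5 and 15 reads and a ratio of -2.91, and miR-656-3p 8 and 15 reads and a ratio of -2.29. These 3 were the arms of this range whose odds against the rest of the cluster had an interval below 0. Those odds come from the same reads as the ratios and add no separate support. At the other end, miR-544-5p had 23 and 5 reads and a ratio of 0.68 (-0.64 to 2.53), an interval that holds 0. miR-369-3p, one of the miRNAs used to reprogram somatic cells, had 51 and 32 reads, and miR-382-5p 39 and 31.

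The remaining 52 arms had fewer than 20 reads and together 2.91% and 4.84% of the cluster's reads. They include members best known from neurons. miR-134-5p, which limits the growth of dendritic spines, had 8 reads in each library. miR-485-5p had 1 and 2 reads and miR-381-3p 1 and 5. miR-376 arms, whose precursors are edited by adenosine deaminases in brain, had 12 reads or fewer in any library. At 0 reads were 4 member arms in the positive and 8 in the negative library, where a count of 0 allows up to 0.366 and 0.979 RPM.

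**Figure D3:**
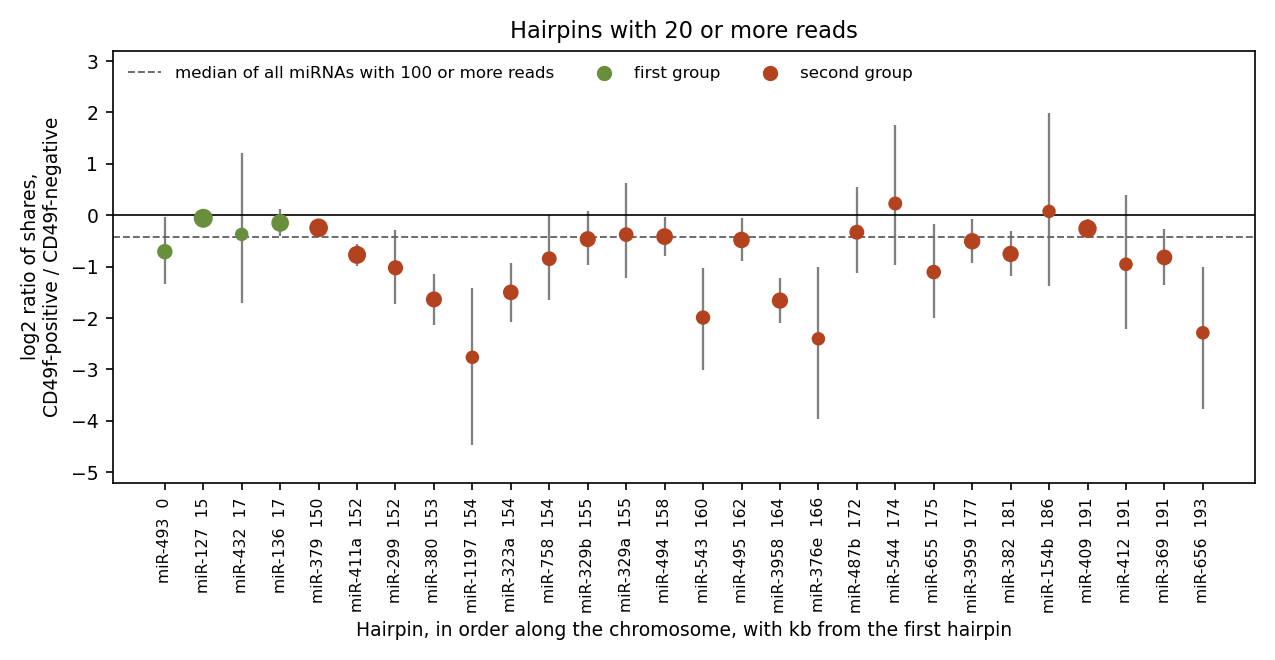
Log2 ratio of hairpin shares, CD49f-positive over CD49f-negative, for the 28 hairpins with at least 20 reads in chromosome order, evenly spaced and labelled with kb from miR-493. Points are both arms summed, larger with more reads, bars are 95% counting intervals and the dashed line is the median of all names with at least 100 reads, -0.43. miR-127, miR-136 and miR-379 sit near 0, miR-493 of the first group lies at -0.71, and low values are scattered through the second group.

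By position, hairpin ratios (both arms summed) did not fall or rise steadily along the chromosome. In the 5 hairpins from miR-379 on, the log2 ratio was -0.24 for miR-379, -0.77 for miR-411a, -1.02 for miR-299, -1.64 for miR-380 and -2.76 for miR-1197. The last rests on 6 and 16 reads (-4.48 to -1.41). The interval of miR-299, with 41 and 31 reads (-1.72 to -0.29), overlaps those of miR-411a and miR-380. The ratio was -1.50 for miR-323a, then -0.85 for miR-758, -0.46 for miR-329b, -0.38 for miR-329a and -0.42 for miR-494. Low values returned at miR-543 with -1.99 (16 and 24 reads) and miR-3958 with -1.66, with miR-495 at -0.48 between them. Near the far end miR-409 stood at -0.26, miR-369 at -0.82 and miR-656 at -2.29 (8 and 15 reads). Of the 28 hairpins with at least 20 reads, 26 were below 0 by total reads and 11 with TMM over all names. Counted as single arms rather than hairpins, 86.49% of the 37 member arms with at least 20 reads were below 0 by total reads. The share over all 485 such arms of any miRNA was 78.56%. Some direct neighbours had intervals that did not overlap, such as miR-495 and miR-3958. By side, all 3p arms of the cluster had a log2 ratio of -0.48 and all 5p arms one of -0.40. The second group's 3p arms took 898 and 701 reads, a log2 ratio of -1.06 (-1.21 to -0.92). Its 5p arms took 2781 and 1378 reads, a ratio of -0.41 (-0.50 to -0.31). The 3p sum holds all 3 called arms, and miR-379-5p, miR-409-5p and miR-411a-5p carry most of the 5p sum. The part of these arms in the gap between the sums was not tested.

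**Figure D4:**
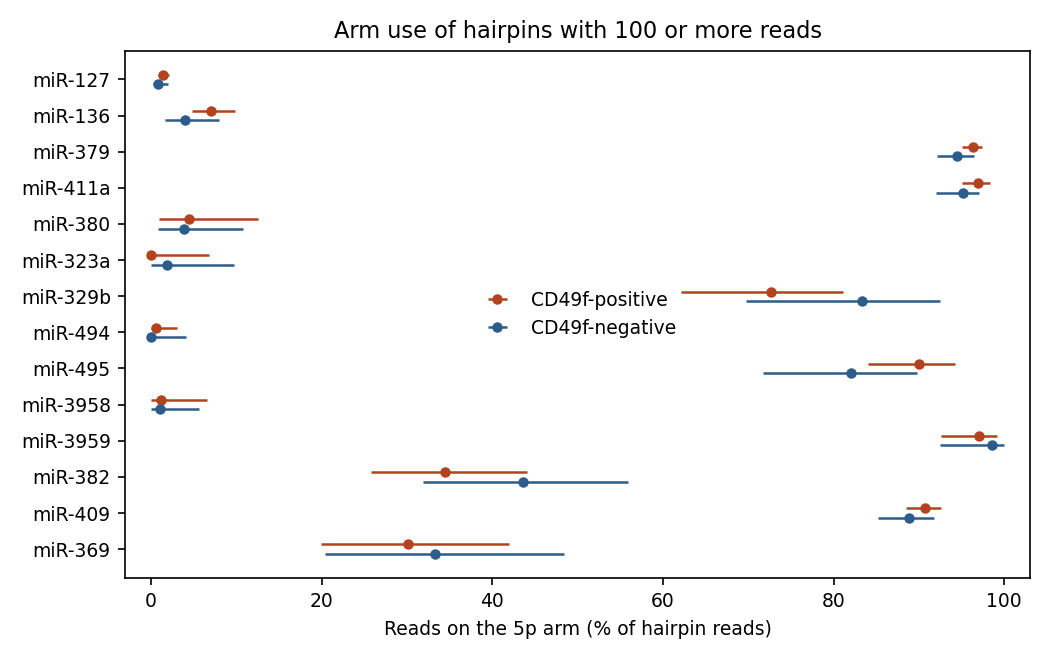
Share of a hairpin's reads on its 5p side (x axis, %) for the 14 hairpins with at least 100 reads, CD49f-positive in red and CD49f-negative in blue, in chromosome order from top to bottom. Bars are exact 95% intervals, which overlap between the libraries for all 14 hairpins. In miR-495 and miR-329b the listed 5p side sequence is not the annotated 5p arm.

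A hairpin yields a 5p and a 3p arm, of which the guide is usually kept. Arm use was much alike in the libraries. Of the 14 hairpins with at least 100 reads, 6 had most reads on the 5p side in each library. The same side led in 14 of 14, and the intervals overlapped in 14 of 14. The 6 include miR-495 and miR-329b, whose 5′ side sequences are not the annotated 5p arms, as described below. Their values therefore do not show a choice between the annotated arms. The largest difference, 10.61 percentage points, was in miR-329b (72.73% and 83.33% on the 5p side). A shift smaller than the intervals cannot be seen here. miR-379 had 96.39% and 94.53% of reads on its 5p side, miR-411a 96.99% and 95.12%, miR-3959 97.06% and 98.61%, and miR-409 90.68% and 88.8%. On the 3p side stood miR-127 with 1.37% and 0.838% 5p reads, miR-136 with 6.98% and 3.93%, miR-380 with 4.48% and 3.85% and miR-3958 with 1.22% and 1.03%. miR-382 was the most mixed of the 14, with 39 and 74 reads on its sides in the positive library and 31 and 40 in the negative.

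In miR-495 and miR-329b the 5′ side reads did not lie where the mature 5p arm is annotated. The tables named these entries p5, the mark for a sequence other than the known arms, and they are counted above as miR-495-5p and miR-329b-5p. The listed miR-495 sequence had 56 copies in the positive and 26 in the negative library. It ended within 1 base of the start of the annotated 5p arm, as did the miR-329b sequence, with 31 and 18 copies. The known 3p arm of miR-495 had 15 and 14 reads. The miR-495 hairpin at chr21:62837685-62837805 (+ strand) shows this, with the listed 5′ sequence and then the listed 3p arm in capitals. The miR-409 hairpin at chr21:62866991-62867104 (+ strand) stands beside it as one with the usual arms.
miR-495: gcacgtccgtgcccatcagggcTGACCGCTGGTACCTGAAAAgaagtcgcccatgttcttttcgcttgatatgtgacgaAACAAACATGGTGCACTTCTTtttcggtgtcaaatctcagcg
miR-409: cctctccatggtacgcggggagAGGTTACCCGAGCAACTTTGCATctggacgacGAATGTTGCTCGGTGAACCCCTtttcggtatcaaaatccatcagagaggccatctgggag

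Such displaced sequences, which end within 2 bases of the annotated 5p start and overlap it by at most 2 bases, were listed for 7 of 35 cluster hairpins in the positive library (20.0%) and 9 of 35 in the negative (25.7%). Outside the cluster they were listed for 2 of 258 (0.775%) and 0 of 260. A displaced sequence can be placed only where the deposited hairpin has enough bases before the 5p arm. Cluster hairpins were longer as deposited (median 113.5 bases, against 88.5), and this count was not repeated at matched length. The part of flank length in the contrast was not tested. In all, 11 cluster hairpins had a displaced sequence in either library and 5 in both: miR-329a, miR-329b, miR-487a, miR-487b and miR-495. Those seen in 1 library only (miR-1197, miR-154a, miR-323a, miR-370, miR-3958 and miR-485) each rest on 1 copy and 1 or 2 reads. The displaced sequences were 15 to 21 bases long and belonged to entries with 235 of 2896 and 128 of 1423 cluster 5′ side reads. Of these, miR-495 held 135 and 64 reads and miR-329b 68 and 40. This pattern was noticed in the data, and the tables list 1 sequence per entry, so the other reads of each entry are not seen. In 7 of the 11 the listed sequence held the letters GGTAC, as in both named here.

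Searched over whole hairpins on their own strand, GGTAC occurred in 20 of 46 cluster hairpins (43.5%) and in 19 of 434 other placed hairpins (4.38%). Its reverse complement GTACC, which overlaps it in the letters GTAC, occurred in 8 (17.4%) and 25 (5.76%). Because cluster hairpins were deposited with longer flanks (median 113.5 bases, against 88.5), the count was repeated on hairpins of at least 100 bases, where GGTAC occurred in 20 of 42 and 6 of 141. The letters GTATCAA, seen in lower case after the miR-409 3p arm, occurred in 16 of 46 (34.8%) and 3 of 434 (0.691%), and in 16 of 42 and 2 of 141 of the longer ones. Its reverse complement TTGATAC was in 0 and 1. Both motifs together were found in 9 cluster hairpins and in 0 others. The 46 hairpins share ancestry and are not independent, and a match of letters is a description only. The cluster's hairpins had a median GC content of 45.8%, against 48.5% in the others. Of cluster reads, 74.36% and 69.82% had no mismatch, beside 67.32% and 64.02% of all named reads.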

How the data were processed

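Small RNA libraries of CD49f-positive and CD49f-negative cells, 1 each, were taken as deposited. Per the file headers, the authors matched reads to miRBase hairpins of mammals and to the goat genome, and give expected counts per hairpin arm, because a read that fits several hairpins is split between them. The deposited counts of copies of each listed sequence, the hairpin's GC percent and its folding energy, a score with no stated unit, were used as given by the authors. Not given in the sources used here are the aligner, the miRBase release and the goat build. Names were stripped of species, copy number and arm, and reads summed per name and arm. p5 and p3 entries counted as 5p and 3p.

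Members and lists were chosen with earlier results of these data known. Every arm with at least 100 summed reads was named with its values; arms of 20 to 99 reads were named or given as a range, and those under 20 counted. Ratios of shares had 0.5 reads added to each side, with exact conditional 95% intervals. Arms under 20 reads and the motif letters and displaced sequences given in the text were chosen after their values were seen. Calls needed a 2-fold ratio, 100 reads and an interval without equality; the procedure was tested on simulated data. Python 3.11.15, pandas 2.3.3 and SciPy 1.17.1 were used, and for scaling factors only edgeR 4.0.16 and DESeq2 1.42.0 in R 4.3.3, on expected counts rounded to whole numbers. Alternatives were other scalings, read minimums, fold rules, added reads, reads with no mismatch and hairpins with known places.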

Additional observations from a re-analysis of the deposited data

Results flagged for a closer look

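Other names of the region that are not on the member list also had reads at the locus. Their reads are set beside the limit of 3 that 0 counts would allow. miR-411b had 27 reads in the CD49f-positive and 25 in the CD49f-negative library. miR-3955 had 6 and 4 reads. They were kept out of the cluster's totals.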

How the results depend on the processing

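The cluster's log2 ratio of shares, -0.44 by total reads, turned to 0.38 with TMM and 0.39 with median of ratios over all names. It was -0.16 without the 10 most abundant names and -0.55 without miR-127-3p. With factors over names with at least 100 reads, chosen after seeing the data, it was -0.10 (TMM) and -0.0082 (median of ratios). The median of the 14 arms, -0.53, turned to 0.29 and 0.30 with TMM and median of ratios over all names. The count of 3 arms called lower fell to 0 with TMM and with median of ratios over all names. It rose to 11 with a minimum of 20 reads (29.5% of all such names), to 15 with no minimum (10.8%) and to 5 with a 1.5-fold rule (42.6%). It was 3 under the other scalings and 2 with reads that had no mismatch. Adding 5 reads, or keeping only known placed hairpins, changed no call among the 14 arms. The median share of hairpin reads on the 5p side, displaced sequences included, was 32.33% in the positive and 38.5% in the negative library. It was 32.69% and 39.29% with no mismatch, 38.69% and 40.25% with a minimum of 20 reads and 42.86% and 50% with no minimum. Single hairpins' arm use was not recomputed. No paired analysis was possible because each group has 1 library. Depth limits the 75 arms under 100 reads, and the negative library sets the width of most intervals.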

Other observations

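Other imprinted miRNAs give a measure beside the cluster. miR-335, from an intron of the paternally expressed gene MEST, was lower in the CD49f-positive library on both arms. miR-335-3p had 378 reads in the positive and 505 in the negative library, a log2 ratio of -1.84 (-2.03 to -1.64), and miR-335-5p had 401 and 414, a ratio of -1.47 (-1.67 to -1.26). Both stayed below 0 with TMM over all names, at -1.02 and -0.65. A call of lower was common by total reads, met by 24.8% of the 298 names with at least 100 reads. The median log2 ratio of those 298 names was -0.43. miR-483-3p, from IGF2, had 11 and 8 reads. miR-296-3p, from the GNAS region, had 26 and 24 reads and a ratio of -1.31 (-2.16 to -0.44). miR-675 of H19 was not listed.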
